A study of Mus musculus with 2 samples.

Results

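Syndecans and glypicans are the core proteins that carry most of the heparan sulfate on the cell surface. The group described here is the 10 listed genes of both families, 4 syndecans (Sdc1 to Sdc4) and 6 glypicans (Gpc1 to Gpc6), out of 20211 gene symbols, and each of the 10 stood on 1 row of the expression tables. RNA was sequenced from perivascular cells (PVCs, called PCs below) of the mouse aorta, grown in DMEM with serum, with 1 WT library and 1 Kai1-/- library. Both are of C57BL/6 background and were untreated as far as the labels say. Kai1 is Cd82, which encodes a tetraspanin, and the Kai1-/- cells come from knockout mice. The age, sex and number of the animals behind each library are not given in the sources used here. The question of the comparison was what the loss of KAI1 changes in the mRNA of PCs.

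A syndecan spans the membrane once and ends in a short cytoplasmic tail that binds PDZ domain adaptors and the actin cytoskeleton, whereas a glypican is held on the outer leaflet by a glycosylphosphatidylinositol (GPI) anchor. The heparan sulfate chains of both bind growth factors, morphogens, chemokines and matrix proteins, and present them to signalling receptors. In the vessel wall these proteoglycans are known as co-receptors for FGF and VEGF ligands and, in the case of Sdc4, as partners of integrins in focal adhesions.

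The values are RPKM, reads scaled to transcript length and to the mapped reads of the library, so that levels of different genes can be set beside each other. The genes kept are the 10068 whose RPKM, averaged over both libraries, reached 1. A log2 ratio is that of (RPKM + 0.1) in Kai1-/- to WT PCs. There is 1 library per genotype, so no p-value was computed, and every difference below has no replicate check and may hold differences of animal, culture or library preparation, from which genotype cannot be told apart. Counting intervals (95%) are of the ratio of the RPKM values without the added 0.1, rest on read numbers estimated from the steps in the values, about 29600000 reads in WT and 27000000 in Kai1-/-, and cover counting error only.

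The targeted gene Cd82 was at 12.8 RPKM in WT cells and 2.62 RPKM in Kai1-/- cells. The RPKM values summed to 1.4 times as much in Kai1-/- cells as in WT cells, and Gapdh was higher there (log2 ratio 0.50), so that dividing by either lowers every ratio. The smooth muscle markers Acta2 and Tagln and the mural receptor Pdgfrb were abundant in both libraries. They were at 3823, 632.5 and 44.6 RPKM in WT cells and 2580, 306.7 and 31.6 in Kai1-/- cells. The pericyte markers Rgs5 (0.063 and 0.233 RPKM), Kcnj8 (0 and 0.791) and Abcc9 (0.0411 and 0.0303) were low in both and not kept. Of these, Rgs5 and Kcnj8 were higher in Kai1-/- cells and Abcc9 lower. Des (1.23 and 0.25 RPKM) and Notch3 (1.002 and 0.464), also not kept, were lower. Of 12 mural markers, 7 were kept, all with log2 ratios below 0. Of these, 4 passed the 2-fold line, where 7.81% of all genes kept lay beyond it on the lower side. These 4 were Mcam (4.90 and 0.264 RPKM, -3.78), Myh11 (2.96 and 0.346, -2.78), Cnn1 (119.6 and 49.25, -1.28) and Tagln (-1.04). Mcam and Myh11 were below 1 RPKM in Kai1-/- cells and passed the filter through the WT library. The mural list summed to 4646 and 2978 RPKM, a list of 8 fibroblast and adventitial markers to 2362 and 1221, and a list of 8 leukocyte markers to 16.4 and 4.53. Within the fibroblast list Ly6a (1354 and 569.1 RPKM) and Col1a1 (924.5 and 533.6) carried most of the sum, while Cd34 (1.44 and 7.76) and Col3a1 (67.5 and 101.5) were higher in Kai1-/- cells. The leukocyte genes kept were Csf1r (11.7 and 2.66 RPKM, log2 ratio -2.10) and Lyz2 (3.44 and 1.09, -1.57), both more than 2-fold lower, while Ptprc was at 0.0407 and 0.00697 and Emr1 and Cd3e were listed at 0. The part of such cells in the lower values below was not tested. All 8 endothelial markers were between 0 and 0.413 in WT cells and listed at 0 in Kai1-/- cells. The Y-linked genes Ddx3y, Eif2s3y, Kdm5d and Uty were between 0.479 and 6.55 in WT cells and listed at 0 in Kai1-/- cells.

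What unites the syndecans can be read at the 3′ end of their coding sequence, shown here because the adaptor Sdcbp, described below, binds the end it encodes. The last 36 coding bases are given, with the final 4 codons before the stop in capitals. They were read from the GENCODE transcripts and were identical to the genome build NCBI37 (mm9) at chr12:8798578-8798613 on the plus strand for Sdc1, chr15:32962260-32962295 on the plus strand for Sdc2, chr4:130378689-130378724 on the plus strand for Sdc3 and chr2:164251586-164251621 on the minus strand for Sdc4.
Sdc1: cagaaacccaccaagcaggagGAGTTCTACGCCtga
Sdc2: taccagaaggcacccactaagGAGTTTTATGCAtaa
Sdc3: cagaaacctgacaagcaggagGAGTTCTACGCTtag
Sdc4: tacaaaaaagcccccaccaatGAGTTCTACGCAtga
The capitals differ in some bases between the genes but encode the same 4 residues in all 4, the PDZ-binding end of the protein. Over the whole protein, pairs of syndecans shared between 39.4% and 51% of the residues of the shorter one.

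The glypicans fell into 2 groups by the same measure. Gpc3 and Gpc5 were identical to each other at 43.7% of residues, and each was identical to Gpc1, Gpc2, Gpc4 and Gpc6 at only 23.5% to 28.5%. Among Gpc1, Gpc2, Gpc4 and Gpc6 the identity ran from 37.7% for Gpc1 with Gpc2 to 65% for Gpc4 with Gpc6. Gpc3 and Gpc5 were listed at 0 in both libraries, and the other glypicans were above 0 in both. A listed 0 need not mean that a gene was not expressed, since 3 of 79 ribosomal protein symbols were also listed at 0 in 1 or both libraries.

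In WT PCs the order of the levels began with Sdc1 (58.7 RPKM) and Gpc4 (57.4 RPKM), a syndecan and a glypican at nearly the same level. Sdc2 (39.3), Sdc4 (33.7), Sdc3 (28.1) and Gpc1 (20.4) followed, and then Gpc6 (6.46) and Gpc2 (0.642). In Kai1-/- PCs Sdc1 was again first (89.6 RPKM) and Sdc4 second (35.3), with Sdc3 (20.6), Sdc2 (20.3) and Gpc4 (17.7) close together behind them. Gpc1 (7.77), Gpc6 (2.06) and Gpc2 (0.599) again stood last among the 8 genes above 0. Gpc4 thus went from the second place to the fifth. With 1 library each, neighbours in these orders cannot be told apart beyond counting error.

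**Figure D1:**
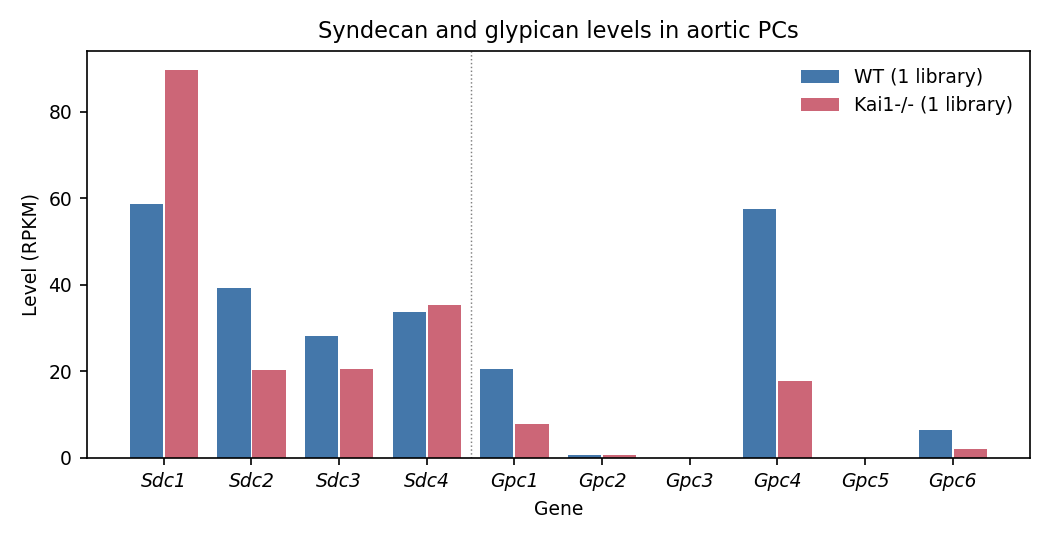
Level of each of the 10 genes in RPKM (vertical axis, from 0) in the WT (blue bars) and Kai1-/- (red bars) libraries, syndecans to the left of the dotted line and glypicans to the right. Gpc4, at 57.4 and 17.7 RPKM, and Sdc1, at 58.7 and 89.6 RPKM, move in opposite directions, and Gpc3 and Gpc5 are listed at 0.

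Of the 10 genes, 7 passed the filter on mean RPKM (all 4 syndecans, Gpc1, Gpc4 and Gpc6), and Gpc2, Gpc3 and Gpc5 did not. Each of the 7 was above 1 RPKM in both libraries. In the Kai1-/- library 3 of them were lower by over 2-fold and 0 higher by over 2-fold, where 7.81% of all genes kept lay beyond 2-fold on the lower side and 7.98% on the higher side. The 3 lower genes were all glypicans, and they were the 3 glypicans kept. The median log2 ratio was -1.61 over these 3 glypicans and -0.19 over the 4 syndecans, against 0.08 over all genes kept. Over the 7 members kept together it was -0.95. The mural markers kept had a median of -1.04, and the fibroblast and adventitial markers kept one of -0.79. Whether the lower values of the members go with those of these markers was not tested.

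Gpc4, a glypican known to modulate FGF, BMP and WNT signalling, lies on the minus strand of the X chromosome at 49406198-49518429 of NCBI37, the build of all gene positions here. It was measured at 57.4 RPKM in WT cells and 17.7 in Kai1-/- cells, a log2 ratio of -1.69 (counting interval -1.79 to -1.61), or 3.25-fold lower. A lower ratio was seen in 3.2% of the genes kept. Since the Y-linked genes differ between the libraries, genotype and the sex of the cells cannot be told apart, and the other X-linked genes were set beside Gpc4. The 270 X-linked genes kept had a median log2 ratio of 0.08, and 2.2% of them had a lower ratio than Gpc4.

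Gpc6, the nearest relative of Gpc4 in sequence, lies on chromosome 14 at 117324519-118378751. It was at 6.46 RPKM in WT cells and 2.06 in Kai1-/- cells, a log2 ratio of -1.61 (counting interval -1.83 to -1.48), which is 3.14-fold lower. The ratios of Gpc4 and Gpc6 were thus close although their WT levels were far apart.

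Gpc1, a glypican that binds FGF2 and VEGF, lies on chromosome 1 at 94728222-94756775. Its level was 20.4 RPKM in WT cells and 7.77 in Kai1-/- cells, for a log2 ratio of -1.38 (counting interval -1.52 to -1.27), or 2.63-fold lower. Gpc2, best known from the developing nervous system, on chromosome 5, was low in both libraries, at 0.642 and 0.599 RPKM, or about 118 and 100 reads, and its counting interval from -0.50 to 0.30 includes 0. Gpc3, a binder of Hedgehog ligands mutated in an overgrowth syndrome, on the X chromosome next to Gpc4, and Gpc5, on chromosome 14 next to Gpc6, had no value above 0 in either library.

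The syndecans did not share a direction. Sdc1, the syndecan typical of epithelia and plasma cells, lies on chromosome 12 at 8778129-8800521. It was at 58.7 RPKM in WT cells and 89.6 in Kai1-/- cells, a log2 ratio of 0.61 (counting interval 0.56 to 0.66), or 1.53-fold higher, and 80.5% of the genes kept had a lower ratio. Divided by Gapdh its ratio was 0.11. Because Sdc1 is an epithelial gene, epithelial and mesothelial markers were set beside it. Of 9 such markers, Krt19 (29.3 RPKM in WT cells and 91.3 in Kai1-/- cells) and Upk3b (0.975 and 2.81) were kept and both were more than 2-fold higher. The sum over the list was 31.7 RPKM in WT cells and 95.7 in Kai1-/- cells. The other 7 were between 0 and 0.670 RPKM, and the defining markers Epcam and Krt5 were listed at 0 in both. The part of such cells in the value of Sdc1 was not tested, and in bulk RNA more cells of a type and more RNA per cell cannot be told apart.

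Sdc2, the syndecan of mesenchymal cells, lies on chromosome 15 at 32850478-32964485. The level was 39.3 RPKM in WT cells and 20.3 in Kai1-/- cells, a log2 ratio of -0.95 (counting interval -1.04 to -0.87), just short of 2-fold. It passed the 2-fold line under each of the 4 other scalings, all of which lower the ratios, with values from -1.45 to -1.03. Sdc3, or N-syndecan, a receptor for pleiotrophin on chromosome 4 at 130348452-130382234, went from 28.1 to 20.6 RPKM (log2 ratio -0.45, counting interval -0.52 to -0.38). Neural and Schwann markers were set beside Sdc3, which is abundant in nervous tissue. Of these, Sox10, Snap25 and Elavl3 were between 0 and 0.0134 RPKM in both libraries, S100b was at 13.7 and 3.18, and Tubb3 at 43.4 and 70.5. Sdc4, the focal adhesion syndecan on chromosome 2 at 164249747-164269387, was at 33.7 RPKM in WT cells and 35.3 in Kai1-/- cells, with a log2 ratio of 0.07 whose counting interval from -0.02 to 0.15 includes 0. Its sign depended on the scaling, and its ratio was -0.43 when divided by Gapdh.

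**Figure D2:**
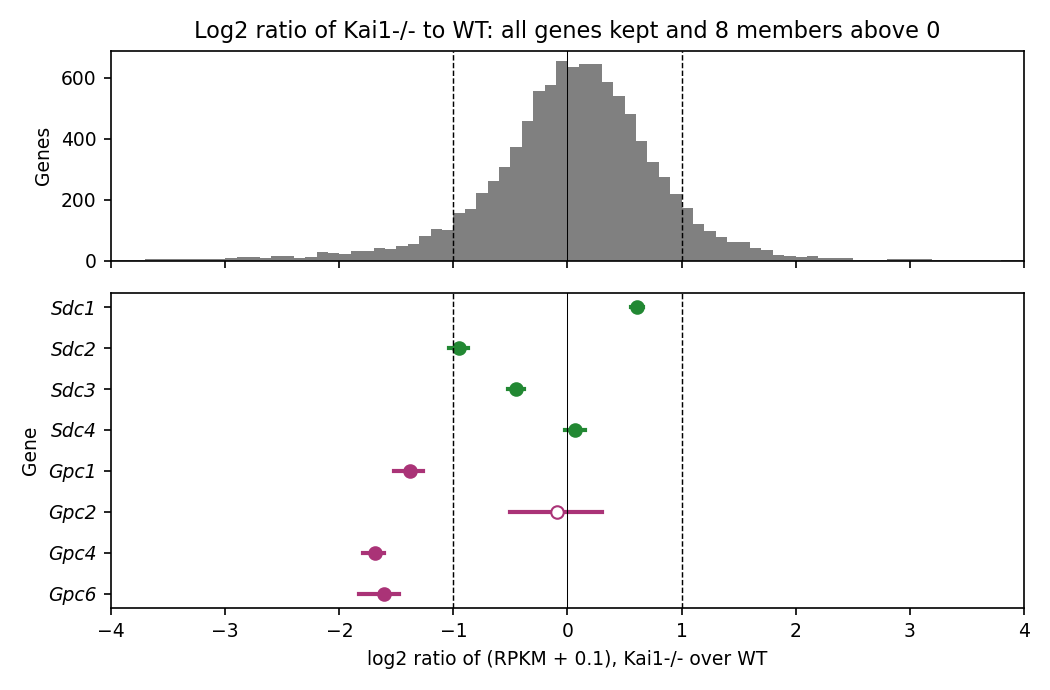
Log2 ratio of (RPKM + 0.1) in Kai1-/- over WT PCs, as a histogram of the genes kept (top, number of genes per bin of 0.1) and for the 8 genes above 0 (bottom, syndecans green, glypicans purple, horizontal lines the 95% counting interval, open symbol for Gpc2, which is not among the genes kept). Dashed lines mark 2-fold in each direction, and Gpc1, Gpc4 and Gpc6 lie beyond the left line at -1.38, -1.69 and -1.61.

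The make-up of the core protein mRNA is independent of how the libraries are scaled. The 4 syndecans summed to 159.8 RPKM in WT cells and 165.7 in Kai1-/- cells, while the 6 glypicans summed to 84.9 and 28.1. Syndecans were therefore 65.3% of the summed RPKM of the 10 genes in WT cells and 85.5% in Kai1-/- cells. Gpc4 alone went from 23.5% to 9.12%, and Sdc1 from 24% to 46.2%. Without Sdc1 the share of syndecans was 54.3% in WT cells and 73% in Kai1-/- cells, so that the shift did not rest on Sdc1 alone. Gpc4 made up 57.4 of the 84.9 RPKM of the glypicans in WT cells and 17.7 of the 28.1 in Kai1-/- cells. Shares without Gpc4 were not computed, so how far the shift rests on that gene was not tested. These shares describe mRNA, and neither protein nor heparan sulfate was measured in these libraries.

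**Figure D3:**
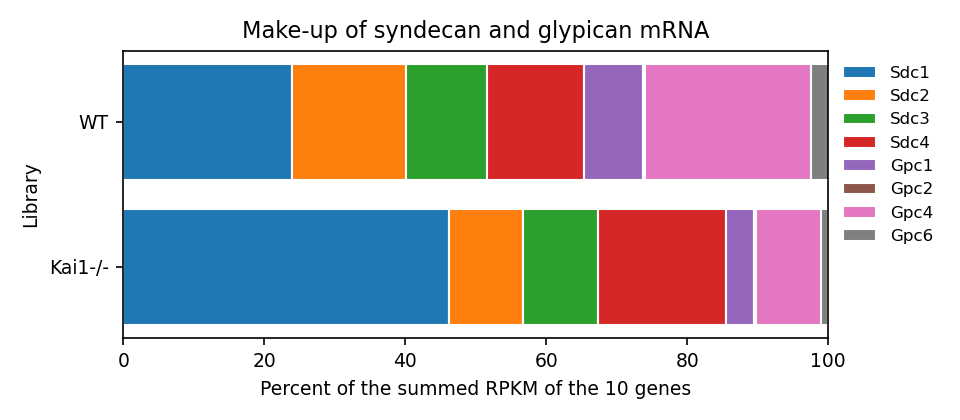
Each gene as a percent of the summed RPKM of the 10 genes (horizontal axis) in the WT and the Kai1-/- library, stacked in the order of the legend. Sdc1 widens from 24% to 46.2% and Gpc4 narrows from 23.5% to 9.12%.

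The promoters of Sdc1 and Gpc4 are shown because these were the most abundant members in WT cells and moved in opposite directions. RefSeq promoters on GRCm38.p6, from 250 bases before to 50 after the start of the gene, were matched for 7 of the 10 genes. Gpc1, Gpc6 and Sdc2 were not matched. GGGCGG, the core of the GC box bound by Sp1 family factors, is in capitals, and reads CCGCCC where it lies on the opposite strand.
Sdc1 (chr12:8771146-8771445, plus strand): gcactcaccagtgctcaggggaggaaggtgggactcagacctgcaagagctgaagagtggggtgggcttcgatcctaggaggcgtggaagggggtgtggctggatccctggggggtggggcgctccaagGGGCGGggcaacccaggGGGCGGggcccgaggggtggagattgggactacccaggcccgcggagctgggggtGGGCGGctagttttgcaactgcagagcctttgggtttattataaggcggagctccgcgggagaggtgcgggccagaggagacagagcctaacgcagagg
Gpc4 (chrX:52164874-52165173, minus strand): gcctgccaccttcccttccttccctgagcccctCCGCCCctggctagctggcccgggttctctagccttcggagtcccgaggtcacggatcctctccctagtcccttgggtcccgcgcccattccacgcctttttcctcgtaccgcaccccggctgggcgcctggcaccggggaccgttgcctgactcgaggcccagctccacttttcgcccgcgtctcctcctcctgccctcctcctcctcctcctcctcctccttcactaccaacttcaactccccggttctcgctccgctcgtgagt
The motif was found 3 times in the promoter of Sdc1 and 1 time in that of Gpc4. It also occurred 4 times each in Sdc4 and Gpc3, 3 times each in Sdc3 and Gpc2 and 1 time in Gpc5, and in 35.9% of all 27025 promoters of the same length. A match is a description of the letters and not evidence of binding. Gpc3 and Gpc5, which hold it, were listed at 0.

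Of 10 genes for the linkage region and for chain polymerisation, 9 were kept, 1 was lower by over 2-fold and 0 higher by over 2-fold, with a median log2 ratio of -0.23. Here and for the lists below, the shares over all genes kept were 7.81% lower and 7.98% higher by over 2-fold, with a median of 0.08. Ext1, one of the polymerase subunits, went from 55.1 to 26.7 RPKM (-1.04), and Extl2 from 6.66 to 3.55 (-0.89). The partner subunit Ext2 (74.2 and 65.0 RPKM, -0.19) and the xylose kinase Fam20b (7.4 and 7.33 RPKM, -0.01) differed little. The gene not kept was the xylosyltransferase gene Xylt1, at 0.412 and 0.104 RPKM, or about 36 and 8 reads, which is 3.95-fold lower before the 0.1 is added (counting interval -3.34 to -0.90 on the log2 scale). For the GPI transamidase, which attaches the glypican anchor, 5 of 5 subunits were within 2-fold, from -0.64 for Pigk and -0.48 for Pigs to 0.17 for Gpaa1 and 0.21 for Pigu.

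Of 10 other proteoglycan genes, 7 were kept, 2 of them lower by over 2-fold and 0 higher by over 2-fold, with a median of -0.56. Col18a1, the collagen with heparan sulfate chains from which endostatin is cut, went from 4.39 to 2.06 RPKM (-1.06). Tgfbr3, or betaglycan, a TGF-beta co-receptor with glycosaminoglycan chains, went from 4.92 to 2.32 (-1.05). The basement membrane proteoglycans Hspg2 (31.9 and 32.8 RPKM, 0.04) and Agrn (1.5 and 1.8 RPKM, 0.25) lay near or above 0.

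The cytoplasmic partners of the syndecans stayed within 2-fold in 11 of 11 genes, with a median of -0.03. Sdcbp, or syntenin, the adaptor that binds the end of the syndecan tail printed above, was at 17.5 RPKM in WT cells and 16.9 in Kai1-/- cells (-0.05). The lowest ratios were those of Src (-0.35) and Gipc1 (-0.33), and the highest those of Prkca (0.53) and the membrane linker Ezr (0.95), which went from 20.4 to 39.5 RPKM.

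Among genes for shedding and release of the core proteins or chains, 8 of 14 were kept and 8 of these 8 were within 2-fold, with a median of -0.31. The proteases Mmp2 (68.0 and 39.6 RPKM, -0.78) and Mmp14 (137.7 and 83.4 RPKM, -0.72) were the lowest. Adam10 (7.4 and 7.19 RPKM, -0.04) and the GPI phospholipase Gpld1 (1.12 and 1.22 RPKM, 0.11) were the highest, and the glypican convertase Furin was at 12.8 and 8.82 RPKM (-0.53). Hpse, or heparanase, which cuts heparan sulfate, was below the filter at 0.398 and 0.961 RPKM, or about 34 and 75 reads, and Notum, which releases glypicans from the membrane, at 0.0929 and 0.185, or about 6 and 10 reads.

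The ligands had the widest range of ratios among the pathway lists, in both directions. Of 23 ligands, 14 were kept, 4 of them lower by over 2-fold and 3 higher by over 2-fold, with a median of -0.48. Fgf2, Wnt5a, Hgf and Ptn, which are 4 of these 7, were below 1 RPKM in 1 library and passed the filter through the other, so that their difference helped to select them. Fgf2 went from 4.94 to 0.684 RPKM, or about 152 to 19 reads (-2.68, counting interval -3.61 to -2.15), and Thbs1, which binds heparan sulfate and inhibits angiogenesis, from 818.0 to 185.4 RPKM (-2.14). Fgf7 (29.6 and 13.3 RPKM, -1.15) and Wnt5a (1.9 and 0.829 RPKM, -1.11) were also more than 2-fold lower. In the other direction, Bmp4 went from 9.24 to 28.4 RPKM (1.61), Hgf from 0.806 to 2.61 (1.58) and Ptn, or pleiotrophin, the ligand of Sdc3, from 0.594 to 1.65 (1.33), while the related Mdk was at 1.43 and 1.08 RPKM (-0.38, counting interval -1.23 to 0.37).

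Of 21 co-receptors and membrane partners, 20 were listed and 18 kept, 1 lower by over 2-fold and 1 higher by over 2-fold, with a median of -0.41. Itgav, an integrin chain known to work with Sdc1, went from 24.4 to 8.40 RPKM (-1.53), and its partner Itgb5 from 133.3 to 67.2 (-0.99). The WNT receptor Ror2 went from 1.21 to 2.56 RPKM (1.02), and Fgfr2 from 1.51 to 2.07 (0.43).

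**Figure D4:**
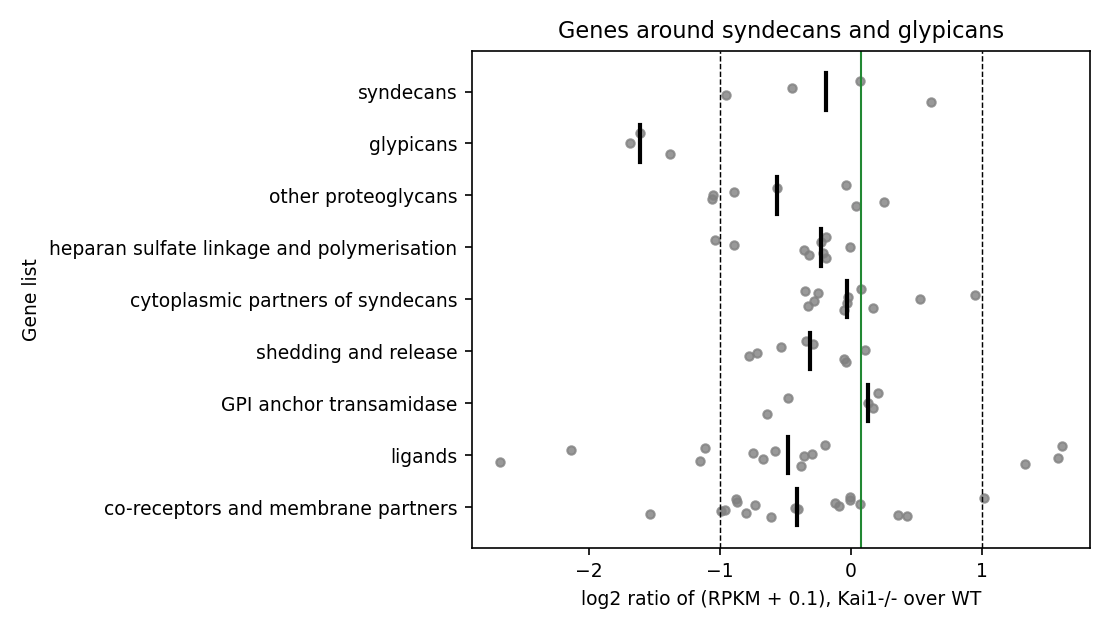
Log2 ratio of (RPKM + 0.1) in Kai1-/- over WT PCs for the genes kept of each list (grey points) with the median of the list (black bar). Dashed lines mark 2-fold and the green line the median of all genes kept (0.08). The 3 glypicans kept, from -1.69 to -1.38, are all beyond 2-fold, which holds for no other list plotted here. The marker lists are not plotted. Among them, the 2 leukocyte markers kept were both more than 2-fold lower. The 2 epithelial and mesothelial markers kept were both more than 2-fold higher.

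The members' ratios were recomputed under 4 other scalings of the libraries and 2 other added constants. A scaling shifts the ratios of all genes by about the same amount, so the gap between the families is fixed under it. Across 6 such settings the ratio ran from -2.19 to -1.65 for Gpc4, from -2.08 to -1.29 for Gpc6 and from -1.88 to -1.29 for Gpc1. Each was more than 2-fold lower in every one. The 4 scalings all lowered the ratios, so they could not have brought a gene below -1 back above it. An added constant of 1 RPKM moves such ratios towards 0, and under it they were -1.65 for Gpc4, -1.29 for Gpc6 and -1.29 for Gpc1. Sdc1 stayed above 0, from 0.11 to 0.61, and Sdc4 ran from -0.43 to 0.07.

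**Figure D5:**
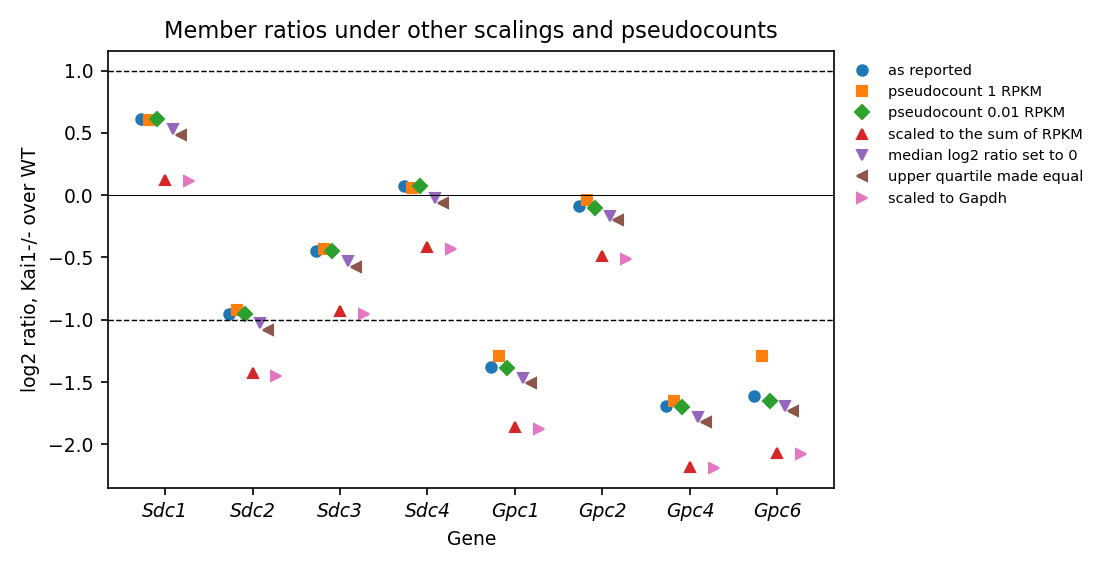
Log2 ratio in Kai1-/- over WT PCs of the 8 genes above 0 (vertical axis) as reported and under 2 other added constants and 4 other scalings, 1 symbol for each. The symbols of Gpc1, Gpc4 and Gpc6 all lie below the dashed line at -1, while those of Sdc4 lie on both sides of 0.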

How the data were processed

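The authors aligned reads to mm9 (NCBI37) with TopHat (version 2.0.9), which ran Bowtie (version 0.12.9), and deposited 1 RPKM value per RefSeq gene and library. The labels also name Cufflinks, and the depth and library type are not given in the sources used here. The deposited RPKM values are not counts, so no count test was run.

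Of the 20462 rows of each table, 38 that name no gene were dropped, and rows sharing a symbol were averaged. Log2 ratios used a pseudocount of 0.1 RPKM, which understates the change of low genes, and summaries the 10068 genes whose mean RPKM reached 1. Reads per gene were estimated from values of genes with 1 transcript of over 800 bases. The best fit placed 80.4% (WT) and 79.8% (Kai1-/-) of the low values within 0.15 of a whole read, where evenly spread values give 30%. Depth and fragment length were chosen to make this share as high as possible, and the 30% holds without such a choice. The 2 figures are therefore not a test of the fit. Intervals are exact binomial intervals on these approximate reads, taking the longest GENCODE M1 transcript. Where an RPKM value rests on a shorter transcript, the reads are overstated and the interval is too narrow. This may hold for Gpc2, whose longest transcript has 6411 bases and whose coding sequence has 1740, and for Gpc6, with 6750 and 1668. Other members with more than 1 transcript are also open to it, among them Sdc3 (4973 and 1329) and Sdc1 (3157 and 936). Percent identity came from global alignments (biopython 1.88) of translated GENCODE coding sequences. Genes named were all 10 members, the 2 highest and 2 lowest kept genes of each list, and Mdk, Ptn, Sdcbp, Hpse, Notum and Furin. Fgf7, Wnt5a, Xylt1 and the markers were named after their values were seen. The members and lists were chosen with earlier results of these data known. Some marker and neighbouring genes are not reported here. The 2-fold count was tested on simulated data, with both libraries drawn from the WT values with counting error only and some genes made lower. The simulation holds no difference of animal, culture or library preparation, so it cannot say how far these entered the counts above. Python 3.11.15, numpy 2.4.6, pandas 2.3.3, scipy 1.17.1 and matplotlib 3.10.9 were used.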

Additional observations from a re-analysis of the deposited data

How the results depend on the processing

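The number of members more than 2-fold lower was 3 as reported and 4 under each of the 4 other scalings, which add Sdc2. It was 2 at a mean RPKM of 5 or more, which leaves out Gpc6. Over all genes kept the lower share was 7.81% as reported, 9.06% to 18.4% under the scalings and 5.37% at that filter. No member was more than 2-fold higher under any alternative run. The 4 scalings all lower the ratios, so they could not have added a higher member. The median log2 ratio of the members kept, -0.95 as reported, was -1.43 when scaled to the sum of RPKM, -1.45 when scaled to Gapdh and -1.08 with the upper quartile made equal. These scalings moved the median of all genes kept from 0.08 to -0.39, -0.41 and -0.04, and the members' median stayed 1.03 to 1.04 below it. It was -0.27 without a filter on mean RPKM, which adds Gpc2, Gpc3 and Gpc5, and -0.70 at a mean RPKM of 5 or more. Scaled to Gapdh, 1856 of the 10068 genes kept were more than 2-fold lower (18.4%) and 278 higher (2.76%), against 786 and 803 as reported. Scaled to the sum of RPKM the counts were 1816 and 286 (18% and 2.84%). Without a filter they were 1878 and 1205 of 20211 symbols (9.29% and 5.96%). At a mean RPKM of 5 or more they were 350 and 511 of 6518 (5.37% and 7.84%). After equalising the upper quartile they were 977 and 594 of 10068, and after setting the median to 0 they were 912 and 656. Without Sdc1 the syndecan share was 54.3% in WT and 73% in Kai1-/- PCs, against 65.3% and 85.5%. Of 48 recomputed ratios of single members, 23 moved by less than the one-sided width of their counting interval and 25 further, and 4, all of Sdc4, changed sign. Of 56 recomputed medians of gene lists, 29 moved by less than the median of that width over the members and 27 further, with 2 sign changes, both of the GPI transamidase list (0.13 as reported, -0.35 scaled to the sum of RPKM and -0.37 to Gapdh). No paired analysis was possible because there is only 1 WT library and 1 Kai1-/- library. At the estimated reads the counting intervals of Gpc2, Sdc4, Fam20b, Sdcbp, Adam10, Gpld1, Mdk and Notum include 0, among the members and the genes named from the pathway lists.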

Other observations

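In each of the pairs of glypicans that lie next to each other on a chromosome, 1 gene was listed at 0, which need not mean that it was not expressed. On the X chromosome Gpc4 ended about 107 kb from Gpc3, and the RPKM was 57.4 in WT and 17.7 in Kai1-/- PCs for Gpc4 and 0 in both for Gpc3. On chromosome 14 the gap between Gpc5 and Gpc6 was about 401 kb, with Gpc5 at 0 in both and Gpc6 at 6.46 and 2.06. The next listed genes on the outer sides of these pairs, 1700080O16Rik and Ccdc160 on the X chromosome and Dct on chromosome 14, were listed at 0 in both libraries, and Slitrk5, the next gene before Gpc5, was at 0.293 in WT PCs and 0 in Kai1-/- PCs.

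The neighbours of Sdc1, Pum2 (5.2 and 4.47 RPKM, -0.21) and Laptm4a (292.8 and 227.2 RPKM, -0.37), had ratios below 0 where Sdc1 was at 0.61. On the higher-coordinate side of Sdc3 lies Laptm5 (0.661 and 0.119 RPKM, -1.80), and beside Sdc4, on its higher-coordinate side, Sys1 (35.9 and 46.9 RPKM, 0.38). The neighbours were fixed by position on NCBI37 and were looked up after the members' values were seen.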
